A study of Caenorhabditis elegans with 2 samples.

Results

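Binding of UNC-62 near 9 translation factor genes was described from ChIP-seq of whole L1 larvae of Caenorhabditis elegans, a method that sequences the DNA recovered with a protein. The genes were eef-1A.1, eef-1A.2 and eef-2 (elongation), iff-1 and iff-2 (eIF5A) and eif-3.B, eif-3.C, eif-3.D and eif-3.E (initiation), and all 9 were found among the 19973 protein-coding genes of the annotation. They were chosen by name after the pooled signals and the authors' thresholded peaks of these same lists were known, so those values are given as a description with no test. Strain OP600 carries unc119(ed3) and the transgene wgIs600, in which unc-62 is fused to TY1, EGFP and FLAG beside a copy of unc119. All libraries, 2 biological replicates, belong to 1 group of L1 larvae of pooled sexes and of this strain, and no control library was analysed here. The labels name the antibody unc-62 in one field and the target eGFP-unc-62 in another, so tagged and native UNC-62 cannot be told apart. Whole larvae were used, so strong binding in few cells and weak binding in many cells cannot be told apart.

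Translation initiation factors bring the small ribosomal subunit and the first tRNA to the mRNA, and eIF3 is the large scaffold of that step. In elongation, eEF1A carries charged tRNAs to the ribosome, the eEF1B complex, to which eEF1G belongs, recharges eEF1A with GTP, and eEF2 moves the ribosome along the mRNA. eIF5A, which carries the modified residue hypusine, helps ribosomes past sequences on which they stall. UNC-62 is a Meis-class homeodomain protein of the worm. In C. elegans iff-2 is the eIF5A gene of the soma and iff-1 that of the germ line, which in L1 larvae consists of few cells.

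Each list entry is an interval with a summit at its middle and the authors' signal value, which was used only to rank and describe entries within 1 list. The pooled list and both replicate lists held 30000 entries each, so they include weak entries, and the weakest had a signal of 9.05 in the pooled list, 5.17 in replicate 1 and 5.33 in replicate 2. A shorter list held 119 peaks that the authors labelled as optimal and thresholded by the irreproducible discovery rate (IDR). This rate compares peak ranks between lists, and the label does not say which lists were compared. The pooled signals of the 119 peaks ran from 35.0 to 128. By signal, the peaks at iff-2, eef-2, eef-1A.1 and eif-3.C ranked 16, 44, 53 and 95 both in this list and in the pooled list. Membership therefore followed pooled signal and is not evidence separate from it. Nor does it by itself show agreement between replicates, since 7 of the 119 peaks met no replicate 1 entry. An entry was assigned to a gene if its summit lay within 1 kb of the gene's 5′ end. Read depth is unknown, because the lists hold no counts.

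The sequence under the strongest summit is printed for the eEF1A genes, iff-2 and eif-3.B, since these summits carry the comparisons that follow. Each window spans up to 100 bp on either side of the pooled summit and is written 5′ to 3′ on the strand of the gene, in build ce11. That of iff-2 ends at the annotated 5′ end. Capitals mark matches to the motifs listed further on, GAGAGA in both eEF1A windows and GATAA (read here as TTATC) and TTTCAG in that of eif-3.B.
eef-1A.1 (chrIII:6972008-6972208, minus strand): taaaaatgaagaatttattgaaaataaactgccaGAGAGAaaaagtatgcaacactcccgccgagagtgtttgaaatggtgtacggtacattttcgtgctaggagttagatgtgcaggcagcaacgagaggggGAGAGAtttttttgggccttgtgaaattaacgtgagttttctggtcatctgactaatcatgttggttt
eef-1A.2 (chrX:7823242-7823442, plus strand): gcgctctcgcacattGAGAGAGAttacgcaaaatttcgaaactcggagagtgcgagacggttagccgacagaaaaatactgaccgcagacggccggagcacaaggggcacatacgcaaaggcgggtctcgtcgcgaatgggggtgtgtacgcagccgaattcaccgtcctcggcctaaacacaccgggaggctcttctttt
iff-2 (chrII:8561368-8561505, minus strand): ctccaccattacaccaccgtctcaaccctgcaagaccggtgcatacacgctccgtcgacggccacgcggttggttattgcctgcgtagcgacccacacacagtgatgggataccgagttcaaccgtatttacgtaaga
eif-3.B (chrII:14795080-14795280, plus strand): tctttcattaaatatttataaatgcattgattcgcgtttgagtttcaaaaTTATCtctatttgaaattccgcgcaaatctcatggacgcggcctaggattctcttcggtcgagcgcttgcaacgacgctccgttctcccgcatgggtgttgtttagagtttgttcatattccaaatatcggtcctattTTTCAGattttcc

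Of the 9 genes, 8 had a pooled entry within 1 kb, beside 49.1% of all protein-coding genes. An IDR summit within 1 kb was found for 4 (iff-2, eef-2, eef-1A.1 and eif-3.C), beside 0.546% of all genes, and these are the values by which the genes were chosen. In order of the strongest pooled signal, iff-2 stood at 64.0, eef-2 at 45.01, eef-1A.1 at 42.3, eif-3.C at 36.8, eif-3.B at 26.0, eef-1A.2 at 25.6, eif-3.E at 13.4 and iff-1 at 11.3. No pooled entry lay within 1 kb of eif-3.D. The authors' −log10 q-value, higher for stronger support, was 2.54 at each of the 4 IDR summits. It was 0.855 for the strongest entry of eif-3.B, 0.793 for eef-1A.2, 0.0758 for eif-3.E and 0.0461 for iff-1. An entry is thus a listed interval, and those outside the IDR list are not called significant here. The median over all 9 genes, with eif-3.D counted lowest, was 26.0, and the 9799 protein-coding genes with an entry had a median of 12.6, while the median over all protein-coding genes fell on genes with no entry. Around the lowest IDR signal, eif-3.C was the weakest gene inside the IDR list and eif-3.B the strongest outside it. Around the distance limit, the farthest entry inside lay 878 bp from the 5′ end of eif-3.C, and the nearest outside lay 1242 bp from that of eef-1A.2.

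**Figure D1:**
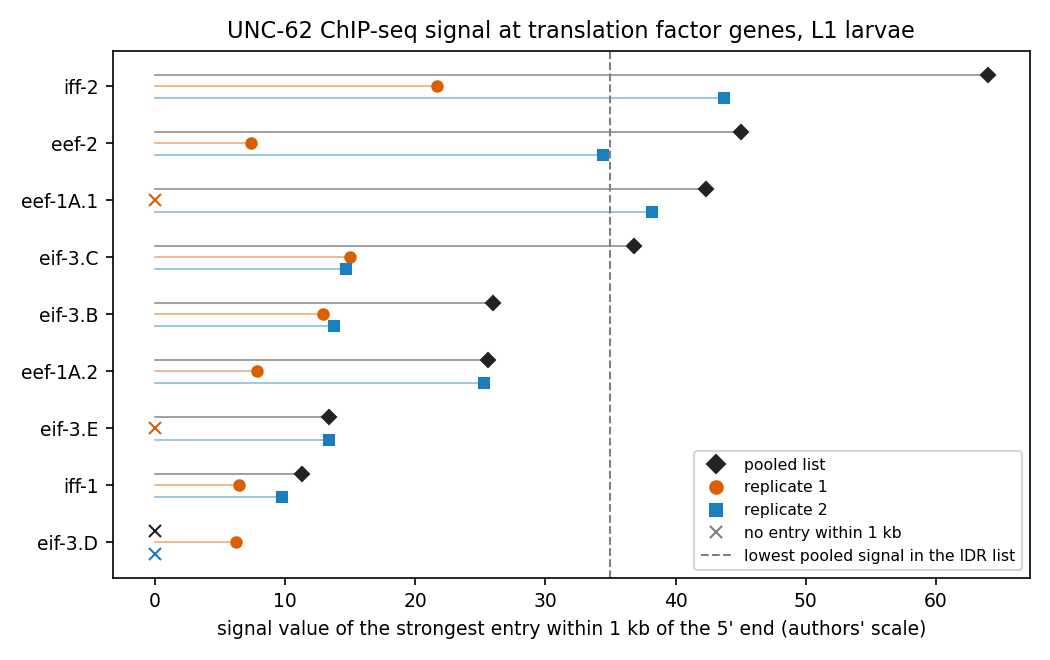
Signal value of the strongest entry within 1 kb of each gene's 5′ end (horizontal axis, the authors' scale) in the pooled list, replicate 1 and replicate 2, with a cross where a list has no entry. The genes iff-2, eef-2, eef-1A.1 and eif-3.C lie beyond the dashed line at 35.0, and eef-1A.1 has no replicate 1 entry.

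Of the elongation factor genes among the 9, eef-2 and eef-1A.1 came next after iff-2 in pooled signal and eef-1A.2 stood just below eif-3.B, and in replicate 1 each had a far lower rank than in replicate 2 or no entry. The eef-1A.1 gene (WBGene00001168, chromosome III, 6970026 to 6971712, minus strand) encodes eEF1A, and its promoter is widely used to drive transgenes in the worm. Its IDR peak (chromosome III, 6971940 to 6972275) ranked 53 in the pooled list, with a summit in intergenic sequence 396 bp upstream of the 5′ end. Replicate 2 had an entry of signal 38.2 there that ranked 26. Replicate 1 had no overlapping entry, and its nearest summit lay 1212 bp away. The same was true of 7 of the 119 IDR peaks, eef-1A.1 included, whereas every IDR peak met a replicate 2 entry. Farther upstream, 1698 bp from the 5′ end and in a coding exon of rfc-4, a weaker pooled entry of 19.9 was met in both replicates, at 11.8 in replicate 1 and 9.89 in replicate 2.

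The other eEF1A gene, eef-1A.2 (WBGene00001169, chromosome X, 7823654 to 7825769, plus strand), had its pooled entry (chromosome X, 7823174 to 7823509) 312 bp upstream, also in intergenic sequence. This entry had a signal of 25.6 and ranked 382, below the IDR list. Replicate 2 had an entry of 25.3 at the same summit, ranked 99. In replicate 1 the overlapping entry had a signal of 7.85 and ranked 10754, with a summit 94 bp away. This site was therefore high in replicate 2 and near the list median of 7.05 in replicate 1, where the eef-1A.1 peak had no entry.

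The eef-2 gene (WBGene00001167, chromosome I, 9163531 to 9166952, plus strand) encodes eEF2, the translocase of elongation. Its IDR peak (chromosome I, 9163359 to 9163694) had a signal of 45.01 and ranked 44, and its summit lay 4 bp upstream of the 5′ end. In replicate 2 the signal was 34.4 and the rank 39. In replicate 1 the signal was 7.41 and the rank 13024, with a summit 3 bp from the pooled summit. A further pooled entry in an intron, 200 bp downstream of the 5′ end, had a signal of 9.76. All 3 elongation genes thus ranked 99 or better in replicate 2. In replicate 1 eef-1A.2 and eef-2 ranked 10754 and 13024, and eef-1A.1 had no entry at its peak.

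The eIF5A gene of the soma, iff-2, was the 1 gene of the 9 with a high rank in both replicates. Its IDR peak spans 8561237 to 8561572 on chromosome II and ranked 16 in the pooled list, 22 in replicate 1 with a signal of 21.7, and 18 in replicate 2 with a signal of 43.7. Among the 119 IDR peaks, 10 ranked 22 or better in both replicates, that of iff-2 included. The pooled summit lay 38 bp upstream of the 5′ end of iff-2 (WBGene00002065, chromosome II, 8559375 to 8561367, minus strand), the replicate 1 summit 20 bp upstream and the replicate 2 summit 57 bp upstream. Both replicates therefore placed it next to the annotated 5′ end of the gene. A shorter iff-2 transcript starts farther downstream, 441 bp from the pooled summit.

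Weaker pooled entries flanked the iff-2 peak, at 12.8 (580 bp upstream) and 13.6 (569 bp downstream, in an intron). Both were met by replicate 1 entries, of 7.35 and 10.1, and by no replicate 2 entry. The downstream entry overlaps the snoRNA gene F54C9.12, whose 5′ end lies 26 bp from the summit, and this summit lies 166 bp past the start of a shorter iff-2 transcript.

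The germ line eIF5A gene iff-1 (WBGene00002064, chromosome III, 9745862 to 9747193, minus strand) had no pooled entry upstream. Its 1 pooled entry (chromosome III, 9746228 to 9746563) had a signal of 11.3, ranked 17363, and lay in a coding exon 797 bp downstream of the 5′ end. At this site replicate 1 had an entry of 5.48, ranked 26990, and replicate 2 an entry of 9.76, ranked 5160, with a summit 185 bp away. The summit lies 208 bp past the start of one shorter iff-1 transcript and 239 bp before that of another. The entries upstream of iff-1 in the replicate lists, at 6.47 in replicate 1 and 6.60 in replicate 2, had summits in a coding exon of cdk-1, the cell cycle kinase gene on the other strand. These values lay between the floor and the median of their lists.

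**Figure D2:**
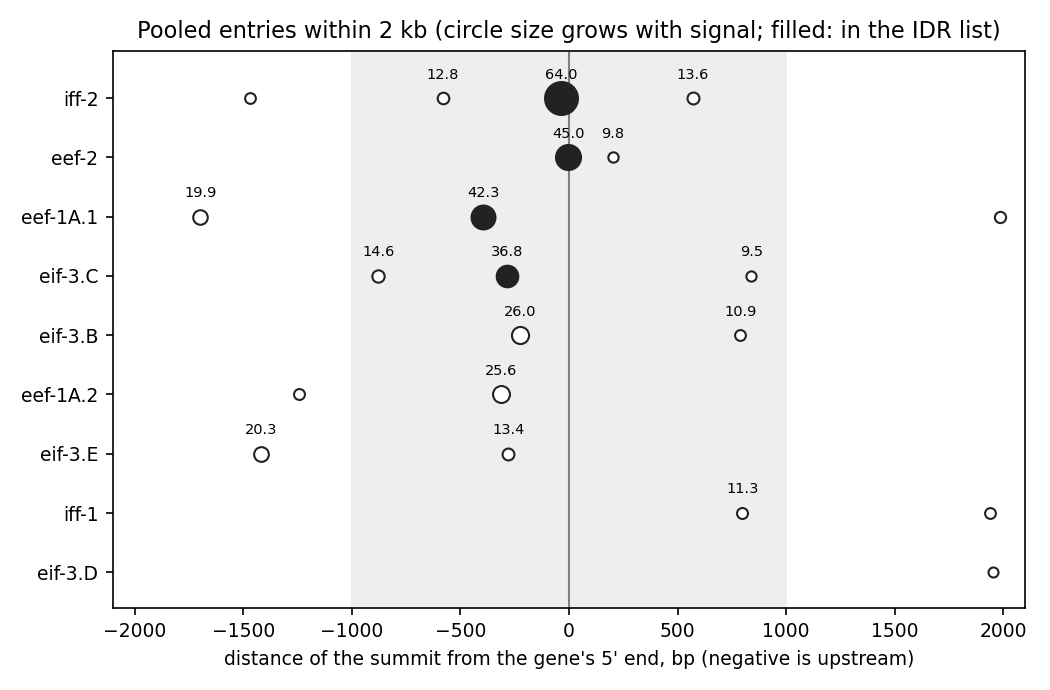
Pooled entries within 2 kb of each gene, by the distance of the summit from the 5′ end in bp (horizontal axis, negative is upstream), with circles that grow with signal and are filled for IDR peaks. The strongest entries of iff-2 and eef-2 lie 38 and 4 bp upstream, those of eif-3.B, eif-3.C, eif-3.E and both eEF1A genes between 224 and 396 bp upstream, and that of iff-1 797 bp downstream.

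Among the initiation factor genes of eIF3, eif-3.C and eif-3.B had sites that ranked between 332 and 1025 in both replicates. Subunits B and C belong to the core of eIF3 that budding yeast shares. At eif-3.C (WBGene00001226, chromosome I, 9976426 to 9979662, minus strand) the IDR peak (chromosome I, 9979778 to 9980113) had a signal of 36.8 and ranked 95, with a summit 284 bp upstream. Replicate 1 had a signal of 15.0 and a rank of 332, and replicate 2 a signal of 14.7 and a rank of 758. Among the 119 IDR peaks, 0 others had a better replicate rank worse than this 332. It was thus in the IDR list at a moderate rank in each replicate, a comparison made after its ranks were seen. Weaker pooled entries of eif-3.C lay 878 bp upstream (14.6, in a coding exon of sys-1) and 839 bp downstream (9.48, in a coding exon). They met replicate 2 entries of 12.4 and 6.04, and no replicate 1 entry.

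At eif-3.B (WBGene00001225, chromosome II, 14795404 to 14798235, plus strand) the strongest pooled entry ranked 348 at a signal of 26.0 (chromosome II, 14795012 to 14795347). Its intergenic summit lay 224 bp upstream. It had a signal of 12.9 and a rank of 889 in replicate 1, and a signal of 13.8 and a rank of 1025 in replicate 2. The pooled signal was close to that of eef-1A.2, whose replicate ranks of 10754 and 99 lay much farther apart. A weaker pooled entry of eif-3.B, at 10.9, lay in an intron 789 bp downstream. It met a replicate 1 entry of 7.59 and no replicate 2 entry.

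The eif-3.E gene had a pooled entry a little above the median of 12.6 of genes with an entry, and eif-3.D had no pooled entry. Subunit D is known in human cells to bind the mRNA cap, and subunit E lies outside the core that budding yeast shares. For eif-3.E (WBGene00001228, chromosome I, 10640465 to 10642281, minus strand) the pooled entry 280 bp upstream had a signal of 13.4 and ranked 9879. Replicate 2 had an entry of 13.4 there, ranked 1199, and replicate 1 had none. A pooled entry of 20.3 lay outside the distance limit, 1420 bp upstream and in a coding exon of B0511.17. For eif-3.D (WBGene00001227, chromosome III, 8969635 to 8971578, minus strand) replicate 1 had an entry of 6.22 that ranked 20609, 98 bp upstream, and neither replicate 2 nor the pooled list had one within 1 kb. The nearest pooled entry, 1953 bp downstream and in an intron of rpap-2, had a signal of 9.05, the floor of the list.

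The standing of the genes in each replicate list is compared by rank, since the lists are of equal length. Within 1 kb, replicate 1 had an entry for 7 of the 9 genes and replicate 2 for 8, beside 49.0% and 49.6% of all protein-coding genes. The strongest pooled entry met an entry of both replicates for 6 genes, beside 16.7% of all protein-coding genes, and the exceptions were eef-1A.1, eif-3.E and eif-3.D. For these 6, the −log10 q-values in replicate 1 ran from 0.0803 at iff-1 to 1.76 at iff-2, with 0.176 at eef-2 and 0.204 at eef-1A.2. In replicate 2 they ran from 0.336 at iff-1 to 2.75 at iff-2, eef-2 and eef-1A.2. If each replicate is cut to its 119 strongest entries, replicate 1 kept 1 gene, iff-2, beside 0.431% of all genes, and replicate 2 kept 4 (iff-2, eef-1A.1, eef-2 and eef-1A.2), beside 0.551% of all genes. The gene eif-3.C was in neither, and eef-1A.2, outside the IDR list, was among the strongest of replicate 2. The IDR genes eef-1A.1 and eef-2 were thus among the strongest entries of replicate 2 alone.

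**Figure D3:**
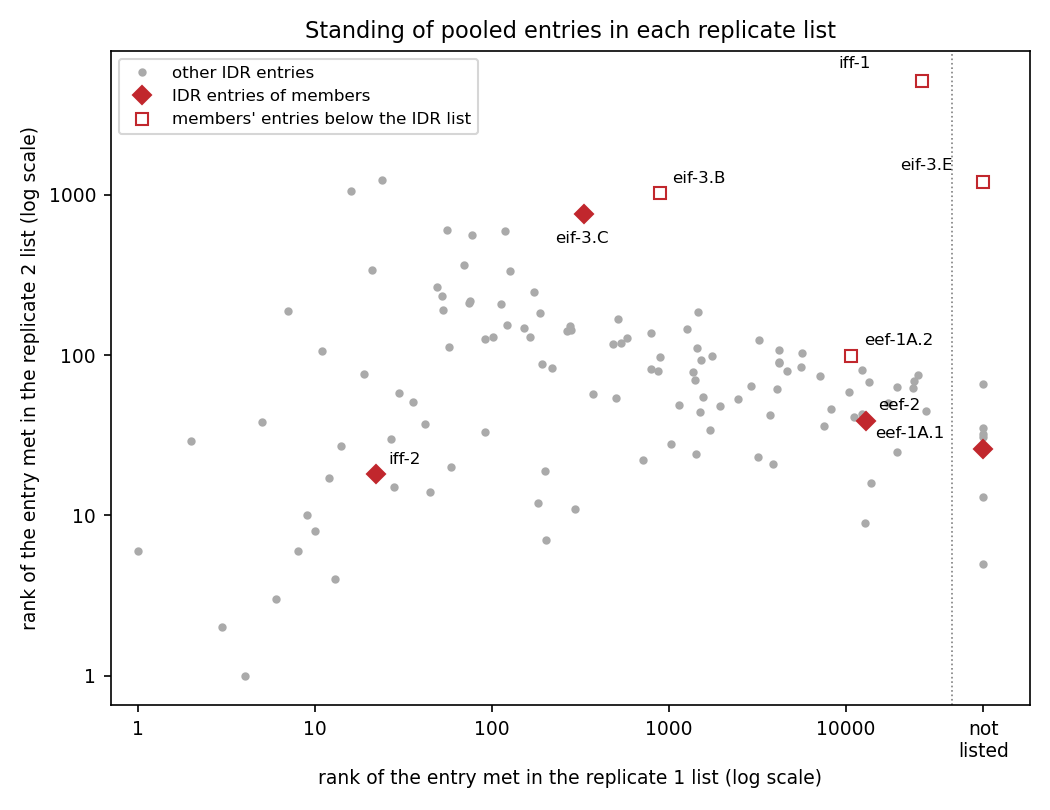
Rank of the entry met in replicate 1 (horizontal axis) and in replicate 2 (vertical axis), both on log scales, for the 119 IDR peaks and for the strongest pooled entries of the other genes; points right of the dotted line have no replicate 1 entry. The iff-2 point is at 22 and 18, eif-3.C and eif-3.B lie together at moderate ranks in both, and eef-2, eef-1A.2 and eef-1A.1 rank within the first 99 in replicate 2 only.

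The paralogues were then set side by side within each list. For eIF5A, the strongest signal of iff-2 was 5.65-fold that of iff-1 in the pooled list (log2 ratio 2.50), 3.35-fold in replicate 1 (1.74) and 4.48-fold in replicate 2 (2.16), so the direction was shared by both replicates, whose log2 ratios had an SD of 0.30 (n = 2). In replicate 1 the iff-1 value is that of the entry in cdk-1. For eEF1A, eef-1A.1 exceeded eef-1A.2 by 1.66-fold in the pooled list (log2 ratio 0.73) and by 1.51-fold in replicate 2 (0.60). In replicate 1 the order was the opposite, with an eef-1A.2 entry of 7.85 and none for eef-1A.1. With 1 replicate on each side, the replicates give no shared direction for the eEF1A pair. No test was run, because both pairs were picked with the pooled values known.

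The coding sequences of eef-1A.1 and eef-1A.2 are each 1389 bp long without the stop codon and 94.0% identical in an end-to-end alignment, and 12.7% of the 31-base words of eef-1A.1 recur in eef-1A.2. The pooled entries of both genes lie upstream of that shared sequence, and each of their 31-base words occurs once in the genome. This was the case for the strongest pooled interval of all 8 genes with an entry, where 100% of words were unique. The GC content of these 8 intervals ran from 32.1% at eef-1A.1 to 51.5% at eef-1A.2. The intervals of these 2 genes thus differ in base composition, though they stand upstream of near-identical coding sequence. Replicate 2 also had weaker entries with summits in coding exons of both genes. They lay 303 bp downstream of the 5′ end of eef-1A.1 (8.05) and 221 bp downstream of that of eef-1A.2 (10.7). Neither met a replicate 1 entry, and the uniqueness of their words was not examined.

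**Figure D4:**
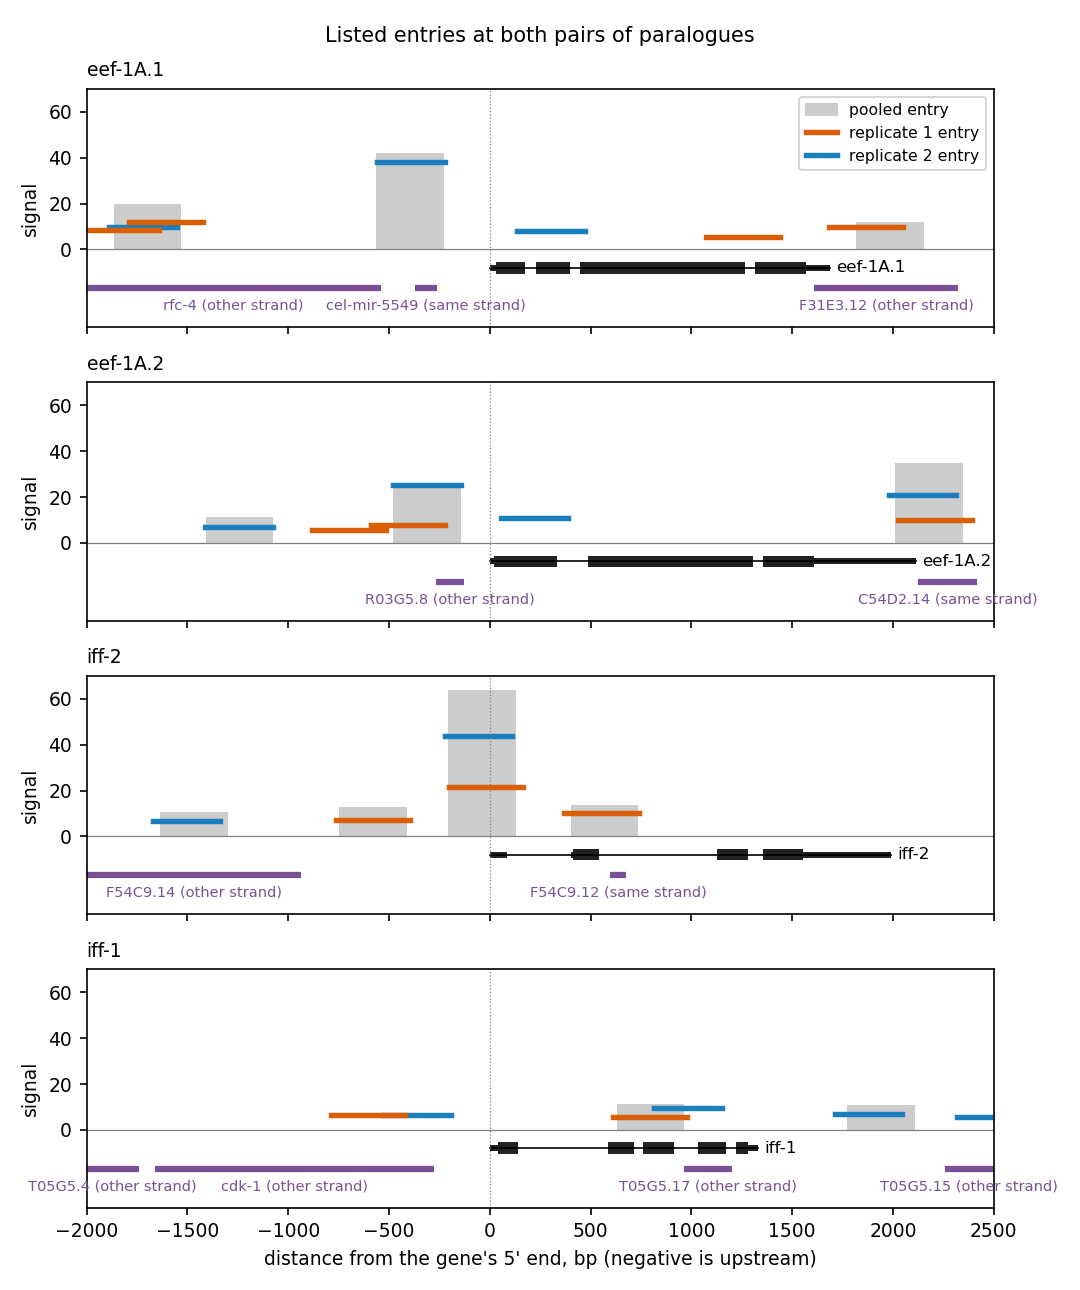
Entries at both pairs of paralogues, drawn by distance from the gene's 5′ end in bp (horizontal axis, negative is upstream) and signal (vertical axis), with exons in black and neighbouring genes in purple. The eEF1A genes each have an upstream site that is high in replicate 2, iff-2 has a site at its 5′ end in both replicates, and iff-1 has weak entries only.

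Several of these summits are shared with another gene, so a site cannot be given to the translation factor alone. The eef-1A.1 summit lies 145 bp upstream of rfc-4, a replication factor C subunit gene on the other strand, and 396 bp from eef-1A.1, and the interval also overlaps the microRNA gene cel-mir-5549, whose 5′ end lies 23 bp from the summit. The eef-2 summit lies 261 bp upstream of clsp-1, which is on the other strand, and only 4 bp from eef-2. The iff-2 summit lies 897 bp upstream of F54C9.14, the eif-3.E summit 468 bp upstream of B0511.17, and both neighbours are on the other strand. The eif-3.C interval overlaps the 3′ end of sys-1, a β-catenin gene on the same strand, whose own 5′ end is 4848 bp from the summit. Within 1 kb of the summits of eif-3.B, eef-1A.2, eif-3.C and iff-1 no other protein-coding gene had its 5′ end, although the eef-1A.2 interval overlaps the non-coding RNA gene R03G5.8. Counting only the single nearest 5′ end, 3 of the 9 genes kept an IDR summit, since that of eef-1A.1 went to rfc-4. The share of all protein-coding genes under this rule was not computed, so the count is not read as a result.

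For each motif, either strand of the 201-bp window at the strongest summit was searched, and the count stands beside the share of all pooled windows. TGACAG, the Meis-class hexamer, was in 0 of 8 windows, which allows a share of up to 37.5%, and in 6.40% of all 30000 pooled windows of this length. Its first 5 letters, TGACA, occurred in the eef-2 window only, beside 32.4% of pooled windows. GAGAGA was in the windows of eef-1A.1 and eef-1A.2, beside 10.8%, and the matches of eef-1A.2 overlap each other. GATAA was in that of eif-3.B, beside 39.0%, and GACGCA in that of eif-3.C, beside 4.37%. TTTCAG, the form of the worm's 3′ splice sites, was in those of iff-2, eif-3.B, eif-3.C and eif-3.E, beside 36.9%. The iff-2 match lies downstream of the printed part of its window. These matches are descriptions of the sequence, and GACGCA was taken from earlier results on these lists.

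The other translation factors were described from a list of 40 matched genes, 31 of them beyond the 9. Of these 31, 21 had a pooled entry within 1 kb, again beside 49.1% of all protein-coding genes. An IDR summit was found for 0, beside 0.546% of all protein-coding genes. This 0 allows a share of up to 9.68% and so does not set the 31 genes apart. Because the 9 were chosen with these values known, the 0 is also not independent of that choice. The median of the strongest signals of the 31 genes was 13.0, with the 10 genes without an entry counted lowest. In the class of elongation factors all 6 genes had a pooled entry, with a median of 26.0, against 8 of 12 genes of eIF3 (median 12.2), 4 of 7 of the cap-binding complex eIF4 (median 13.2) and 8 of 12 of the remaining initiation factors (median 9.26). No test was made of these differences, because the genes of the list were chosen with results known and its division into classes was made after the values were seen.

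Beyond the 9, the highest pooled signal was that of drr-2, which encodes an eIF4H-like protein, at 30.6. It followed the pattern of eef-1A.1, with a replicate 2 entry of 29.6 that ranked 56 and no overlapping replicate 1 entry, and its summit lay 156 bp upstream, within 1 kb of the 5′ end of set-16. The eEF1 exchange factor genes came next. The eef-1G summit (26.2, 39 bp upstream, shared with ctf-4) had the opposite pattern, with a rank of 120 in replicate 1 (signal 17.1) and 17973 in replicate 2 (signal 6.76). The eef-1B.1 summit (20.6, 849 bp upstream, shared with aco-2) likewise ranked 368 in replicate 1 and 17778 in replicate 2. The eef-1B.2 summit (25.9, 196 bp upstream) ranked 583 in replicate 1 and 609 in replicate 2. The eif-3.H summit (20.2, 105 bp upstream, shared with C41D11.3) ranked 2394 and 12903. The subunits of eEF1 therefore did not share 1 replicate pattern.

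**Figure D5:**
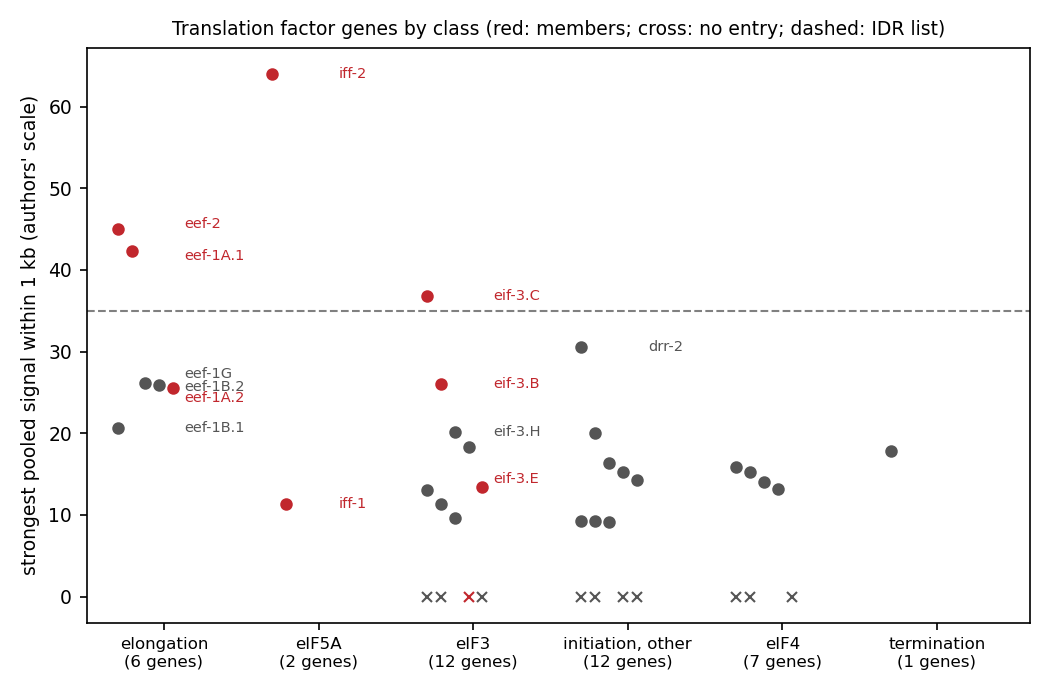
Strongest pooled signal within 1 kb (vertical axis, the authors' scale) for the 40 translation factor genes by class, with the 9 genes in red, genes without an entry as crosses at 0, and the lowest IDR signal of 35.0 as a dashed line. All 6 elongation factor genes have a signal of 20.6 or more, and every gene above the line belongs to the 9. The 9 were chosen with these values known.

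The genes with the values most like those of the IDR genes were found by the sum of absolute log2 differences over the pooled list and both replicate lists, which is a likeness over 3 values from 2 libraries. For iff-2 they were egg-5 (pooled 66.6, replicate 1 19.6, replicate 2 46.1) and puf-9 (63.3, 18.8 and 41.8, in the same order), with sums of 0.279 and 0.289. For eef-2 they were the heat shock protein gene hsp-1 (pooled 39.2, replicate 1 7.85, replicate 2 34.2) and lin-54 (37.3, 7.52 and 33.4), with sums of 0.291 and 0.336. For eif-3.C they were Y71H2AM.20 and nduc-2, which have the same 3 values (pooled 33.4, replicate 1 15.1, replicate 2 16.0). These 2 genes may thus not be separate matches, and their pooled signal is below the lowest IDR signal of 35.0. No such genes were sought for eef-1A.1, which has no replicate 1 value.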

How the data were processed

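UNC-62 ChIP-seq lists of 2 replicates of L1 larvae were used as deposited, in build ce11. Per the file headers and listings, they are narrowPeak files, a format in which the authors give each entry a signal value (column 7) and a −log10 q-value (column 9). The deposited signal values ranked and described entries. The −log10 q-values that the authors deposited are given for some entries but rank nothing here. The sources used here do not give the aligner, the peak caller, the IDR cutoff or the depth. Lists were called per replicate and on pooled replicates, with intervals of 336 bp (370 bp in replicate 1). Lists in ce10 were not used, since no annotation of that build was used and no coordinates were converted.

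Genes and 5′ ends came from Ensembl release 115 (WBcel235, the sequence of ce11), using gene records of the 6 nuclear chromosomes, and sequence came from the RefSeq copy of the same assembly. Coordinates are 1-based. Overlap between lists meant 1 bp or more, and the entry with the nearest summit was taken. Of 43 translation factor names, 3 had no match (ppp-1, eif-5 and etf-1). Members, lists and motifs were chosen with earlier results of these data known. No test was run, as members were chosen on these values and there is 1 group of 2 replicates. The text names the 9 genes, genes at their summits, the 5 strongest other list members and the 2 genes most alike to each IDR gene. Limits on counts of 0 (3 counts) cover counting error only. The assignment of summits to 5′ ends was tested on simulated data. Python 3.11.15, numpy 2.4.6, pandas 2.3.3, biopython 1.88 and matplotlib 3.10.9 were used.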

Additional observations from a re-analysis of the deposited data

How the results depend on the processing

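Of 59 alternatives, 47 stayed close to the reported value (counts within 1.5 times) and 0 reversed one. The eEF1A order in replicate 1, which was the opposite but gave no ratio, is not among the 59. Some of the 47 could not change, since a strongest summit that lies within 500 bp remains the strongest at that narrower limit. With 1 replicate left out, and the IDR list replaced by the 119 strongest entries of the other, 1 to 4 of the 9 genes and 1 to 5 of the 40 listed genes had a summit within 1 kb, the lowest without replicate 2, which kept iff-2 only, and the highest without replicate 1, where drr-2 joined the list. With 595 pooled entries in place of the IDR list, 9 listed genes had a summit. The share of all protein-coding genes at this setting was not computed, so this count is not read as a result. The log2 ratio of eef-1A.1 over eef-1A.2 was 0.60 without replicate 1 and could not be formed without replicate 2. That of iff-2 over iff-1 ranged from 1.74 to 2.16 with a replicate left out, was 3.00 with all entries summed, and could not be formed within 500 bp, where iff-1 had no entry. The cause was not tested. Within 2 kb, the strongest eif-3.E signal became 20.3 and eif-3.D gained an entry. Motif counts moved for 4 motifs with narrower or wider windows. Unknown depth limits any comparison of strength between replicates.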

Other observations

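A pooled entry of 34.7 lay just past the 3′ end of eef-1A.2 (chromosome X, 7825664 to 7825999), 2178 bp downstream of the 5′ end with its summit 63 bp past the gene. It ranked 123, with a signal just under the lowest IDR signal of 35.0, and was stronger than the entry upstream of the gene. Its ranks were 3944 in replicate 1 (signal 10.1) and 206 in replicate 2 (signal 20.9). The interval also overlaps the non-coding RNA gene C54D2.14. In the 4 kb around the other members, the entry next in strength and farther than 2 kb was one of 21.1 in a coding exon of sys-1, 2154 bp upstream of eif-3.C, which ranked 209 in replicate 1 and met no entry in replicate 2. Both positions were named after their values were seen.

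Within 2 kb, 1 more translation factor gene reached an IDR summit. This was eif-6, whose product keeps ribosomal subunits apart, 1987 bp from a peak of 37.6 that lay within 1 kb of the tubulin gene tba-2. The share of all protein-coding genes within 2 kb was not computed, so the added gene is not read as a result. Among 16 germ line genes, 4 (25.0%) had a pooled entry within 1 kb, beside 49.1% of all protein-coding genes. An IDR summit was found for 0, which 16 genes are too few to set apart from the 0.546% of all genes. The strongest of the 4 was spn-4 at 15.3, which ranked 7028 in replicate 1 and 1819 in replicate 2, with a summit shared by spe-39. The germ line paralogue iff-1, at 11.3, lay within the range of these 4 genes, 9.91 to 15.3, and above the 12 genes with no entry. That range also holds the median of 12.6 over protein-coding genes with an entry, so lying within it does not link iff-1 with germ line genes.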
